A study of Mus musculus with 15 samples.

Results

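A retained-intron transcript is an RNA that keeps intronic sequence which the protein-coding RNA of the same gene removes. The deposited table listed 10370 transcripts of mouse cortex, and 363 of them carry the transcript type retained_intron in the GENCODE M21 annotation. The set described here holds the 321 of these transcripts whose gene also had at least 1 listed protein-coding transcript, and they come from 266 genes. Members were chosen by annotation and by presence in the table alone, without regard to their differences between the groups. Presence itself depends on level, since the lowest mean of any listed transcript was 107.9 normalized counts. Each was set beside its coding partner, the most abundant listed protein-coding transcript of the same gene. Of the 266 genes, 223 gave 1 member and 43 gave several, the most being 5 from Arpp21.

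The libraries were made from the cortex of male C57BL/6 mice (C57Bl/6J in the study's methods), given as 12 weeks old, at 1 month after the procedure. The HF-HI group, for high frequency head impact, received repeated head impacts under isoflurane over several days, and 8 libraries were available. The 7 Sham libraries come from mice that went through the anesthesia sessions without being struck. All mice were of 1 strain and 1 sex, and both groups had isoflurane. The comparison asks whether the impacts left a lasting change in the cortical transcriptome, here among transcripts that keep introns. Nothing in the labels ties a library to a single animal, so p-values measure the spread between these libraries.

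Most introns are cut out by the spliceosome while the gene is being transcribed. Some polyadenylated RNAs keep an intron and stay in the nucleus, where they can be spliced later on a signal or be degraded, and these are called detained introns. Genes for splicing factors and for the kinases that phosphorylate them, such as Clk1, are well known for them, and neurons are known to splice some of these RNAs after stimulation. An intron that reaches the cytoplasm usually brings a stop codon into the reading frame, which can direct the RNA to nonsense-mediated decay. A total RNA library holds nuclear RNA, pre-mRNA included, so reads in introns are not specific to finished RNAs.

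The splice sites below show the introns at which several of the members discussed later part from their coding partner. They were read from the GENCODE M21 transcripts on GRCm38 (mm10), and each holds in capitals the first or last dinucleotide of the intron. Donor sites have 3 exonic and 6 intronic bases, and acceptor sites have 20 intronic and 3 exonic bases. Numbl introns 1 and 2 lie at chr7:27258962-27262167 and chr7:27262253-27264875 on the plus strand. Acaa1a intron 5 lies at chr9:119344509-119346469 on the plus strand, and Clk1 introns 3 and 4 lie at chr1:58420212-58421082 and chr1:58419734-58420120 on the minus strand. The Chka donor opens intron 2 of the coding partner, chr19:3864760-3875734 on the plus strand, whose first 2911 bases are in the member.
Numbl intron 1 donor: agcGTgaga
Numbl intron 1 acceptor: cgtctcactcccttgagcAGggc
Numbl intron 2 donor: cagGTgagt
Numbl intron 2 acceptor: cccctatcctatgtcactAGacg
Acaa1a intron 5 donor: tggGTaaga
Clk1 intron 3 donor: gggGTatga
Clk1 intron 3 acceptor: cgcccacttgacgtgtccAGaag
Clk1 intron 4 donor: gatGTatag
Clk1 intron 4 acceptor: taattattcctcttttttAGatg
Chka intron 2 donor: atgGTgagt

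4 short introns are shown whole, each with a stop codon in the frame of the coding partner. The first such stop in the intron is in capitals. Each intron was read on its own. Introns that the same member keeps further upstream, as in Clk1 and Tyro3, were not counted, so an RNA may meet another stop earlier. Clk1 intron 6 spans chr1:58417180-58417266 on the minus strand, and its stop is at codon 2 of the intron. Tyro3 intron 16 spans chr2:119812655-119812802 on the plus strand, with the stop also at codon 2. Calr intron 4 spans chr8:84844784-84844870 on the minus strand, with the stop at codon 5. Kcnt1 intron 25 spans chr2:25909307-25909593 on the plus strand and has its first stop at codon 80.
Clk1 intron 6: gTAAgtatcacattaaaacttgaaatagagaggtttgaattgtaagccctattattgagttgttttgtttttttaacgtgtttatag
Tyro3 intron 16: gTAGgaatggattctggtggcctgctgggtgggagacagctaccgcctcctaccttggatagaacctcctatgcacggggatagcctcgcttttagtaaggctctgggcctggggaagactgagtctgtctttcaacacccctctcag
Calr intron 4: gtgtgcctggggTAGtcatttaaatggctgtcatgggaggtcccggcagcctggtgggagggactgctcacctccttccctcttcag
Kcnt1 intron 25: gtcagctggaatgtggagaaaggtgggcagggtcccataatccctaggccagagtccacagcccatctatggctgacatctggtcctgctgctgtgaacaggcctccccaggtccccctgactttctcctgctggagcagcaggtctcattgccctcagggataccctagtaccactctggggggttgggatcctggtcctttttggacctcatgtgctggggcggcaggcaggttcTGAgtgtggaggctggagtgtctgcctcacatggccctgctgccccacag

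The annotated type covers several structures. Of the 321 members, 130 contained at least 1 whole intron of their partner, 84 of them exactly 1 and 46 several, up to 5. A further 179 contained only part of a partner intron. Among these, 135 ended inside an intron and 67 began inside one, 29 of them doing both. The remaining 12 held no intronic base of the partner. Members were shorter than their partners, with a median of 3478 bases and 5 exons against 4622 bases and 16 exons, and 8 members were a single exon. The same start base as the partner was annotated for 17 members and the same end base for 22.

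The 198 distinct introns held whole were shorter at the median than the other introns of the coding partners. Their median length was 670.5 bases, with quartiles of 269 and 1429, against 1531 bases, with quartiles of 549 and 3810, for the 4223 other introns. The other introns were taken from the partners of all members, those without an intron held whole included. Within single partners that had both kinds the order was less clear. There the retained introns had the lower median length in 68 of 124 partners. Only 7 were the first intron of the partner and 11 the last, and 196 lay between coding exons. The bases G and C made up a median of 44.8% of the intron and 49.8% of the flanking exonic bases.

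**Figure D1:**
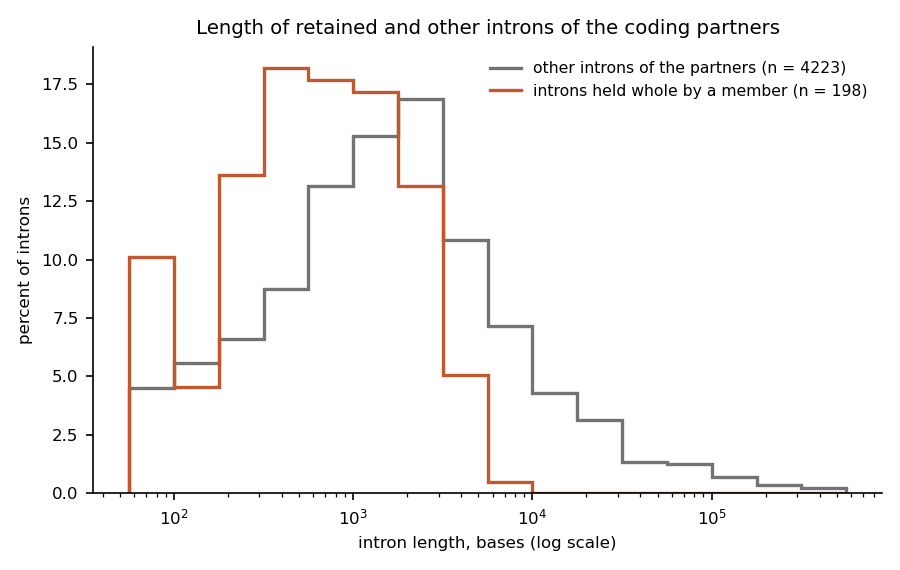
Share of introns in percent against intron length in bases on a log axis. Shown are the 198 introns held whole by a member and the 4223 other introns of the coding partners of all members. The distribution of retained introns lies to the left, with a median of 670.5 against 1531 bases.

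The splice sites of these introns were mostly of the usual kind. GT at the donor with AG at the acceptor was found in 194 of 198, and 3 had GC at the donor, in Hp1bp3, Kcnip2 and Zfp740. The exception was Ift80, a gene of intraflagellar transport, whose intron 2 at chr3:68990964-68994500 on the minus strand begins with AT and ends with AC. That pair of ends is known from introns of the minor spliceosome, and it is printed with a GC donor for comparison, of Hp1bp3 intron 4 at chr4:138226049-138228643 on the plus strand.
Ift80 intron 2 donor: agcATatcc
Ift80 intron 2 acceptor: tccttgacacgcagcatcACatc
Hp1bp3 intron 4 donor: aagGCaagt

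Read in the frame of the partner, 193 of the 196 introns between coding exons contained a stop codon, at a median of codon 13. The length was a multiple of 3 in 65 of all 198 introns held whole. The 3 introns without a stop were in Dvl1, Ttyh1 and Ppia, and none of them had a length divisible by 3.

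The libraries differed in depth between the groups, and this touches every comparison. The reads on listed transcripts were 5798810 to 10582858 in Sham and 3496103 to 8666307 in HF-HI libraries, and the size factors were 0.818 to 1.47 and 0.501 to 1.22. A read was worth 0.679 to 1.997 normalized counts, while the least abundant member averaged 107.9. Fits with the size factor as a covariate are therefore given beside the counts. HF-HI replicate 2 stood apart from all others on the first principal component of the table, at 12.6 against −3.35 to 0.72. Markers of excitatory neurons, interneurons, astrocytes and oligodendrocytes were all listed and none of their 38 transcripts was called, and of 4 microglial transcripts P2ry12 was called lower, with group means of 234 and 200.4 normalized counts, while Tmem119 and Aif1 were not listed. Of the choroid plexus markers only Ttr was listed, at 35.0 to 6685 normalized counts in Sham and 21.0 to 8663 in HF-HI. In bulk cortex, fewer cells of a type and less RNA per cell cannot be told apart.

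Members were measured at lower levels than the table as a whole. The median over members was 187 normalized counts, with quartiles of 141 and 254 and a range of 107.9 to 2826, against 316 for all rows. The lowest mean of all rows was the same 107.9, so retained-intron transcripts of lower level are absent from these values. The coding partners ranged from 117 to 21044 with a median of 636. Per kilobase of transcript, the median member stood at 43.8% of its partner, with quartiles of 21.1% and 83.7%. Among the 321, 58 were above the partner per kilobase and 29 were under 10% of it. The spread between Sham libraries was also wider, with a median coefficient of variation of 17.3%, against 14.05% for 2758 coding transcripts in the middle range of member levels. At least 1 library was at 0 for 11 members.

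The highest levels per kilobase were those of Ank2 ENSMUST00000182588, Uchl1 ENSMUST00000176015, Cox7b ENSMUST00000155377, Ppia ENSMUST00000135789, Rps20 ENSMUST00000103009 and Abcc5 ENSMUST00000134413. Ank2, which encodes the membrane scaffold ankyrin-B, led with 1198 normalized counts per kilobase and 1316% of its partner. This single-exon transcript reaches just 1 base into intron 24 of the partner. Of its bases, 0.0424% were absent from every other listed transcript of the gene, so its level is hardly one of intronic sequence. Uchl1, a neuronal deubiquitinase, reached 967 per kilobase, and 5.31% of its bases were its own. Rps20, a ribosomal protein, stood at 706% of its partner, Abcc5, an export pump, at 564%, Gigyf2 ENSMUST00000174605, a translational repressor, at 342%, Arpp21 ENSMUST00000162082 at 336% and Rsrp1 ENSMUST00000148900 at 310%. Ppia and Rps20 have many near-identical processed copies in the genome, among which reads may be divided, so their values are uncertain.

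Since the counting tool divides reads among transcripts that overlap, the share of private sequence bears on each value. Over all members, a median of 51.4% of the bases were in no other listed transcript of the same gene. By that measure 166 members were above 50% and 49 below 10%. Against all annotated transcripts of the gene, listed or not, the median was 38.3%. Overlap with other genes was not counted. For the members in the comparisons that follow, the share against listed transcripts was 68.5% in Numbl, 80.7% in Chka, 55.3% in Acaa1a and 59.7% in Clk1 ENSMUST00000129577. It was 8.70% in Kcnt1 and 9.23% in Calr.

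At 1 month, more members were higher than lower in HF-HI cortex, by small amounts, and none passed the adjusted threshold. At an unadjusted p under 0.05 in limma, referred to as called, 46 of 321 members (14.3%) differed, 35 higher and 11 lower. The background over all 10370 rows was 8.83% called, with 4.94% higher and 3.90% lower. Over the 2462 rows with a coding partner, members included, 228 (9.26%) were called, 157 higher and 71 lower. The lowest adjusted p of a member was 0.206, so 0 members passed an adjusted threshold of 0.1, and 0 of all rows did. Differences among the called were 0.18 to 0.85 on the log2 scale of mean normalized counts when higher and −1.27 to −0.17 when lower. The median over all members was 0.03 against −0.00 over all rows. A positive difference was found in 190 members (59.2%), in 48.5% of all rows and in 54.5% of rows with a coding partner.

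These counts changed when the depth of the libraries was taken into account. Size factors averaged 1.26 in Sham and 0.888 in HF-HI libraries, so depth and group are partly confounded. With the log2 size factor as a covariate, 27 members (8.41%) were called against 5.14% of all rows, and 20 of the 46 were among them. In the libraries with a size factor above 1, 31 members (9.66%) were called against 5.22% of rows. These are all Sham libraries except replicate 3, and HF-HI replicates 3, 5 and 8, so fewer libraries entered that fit. In 23 of the 46, the call held in all 15 fits that each left out 1 library. Without HF-HI replicate 2, 40 members (12.5%) were called against 8.69% of rows. The lower calls, 11 in all libraries, numbered 5 without that library and 4 with depth as a covariate, while the higher calls numbered 35 and 23. The part of depth in these calls was not tested further.

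**Figure D2:**
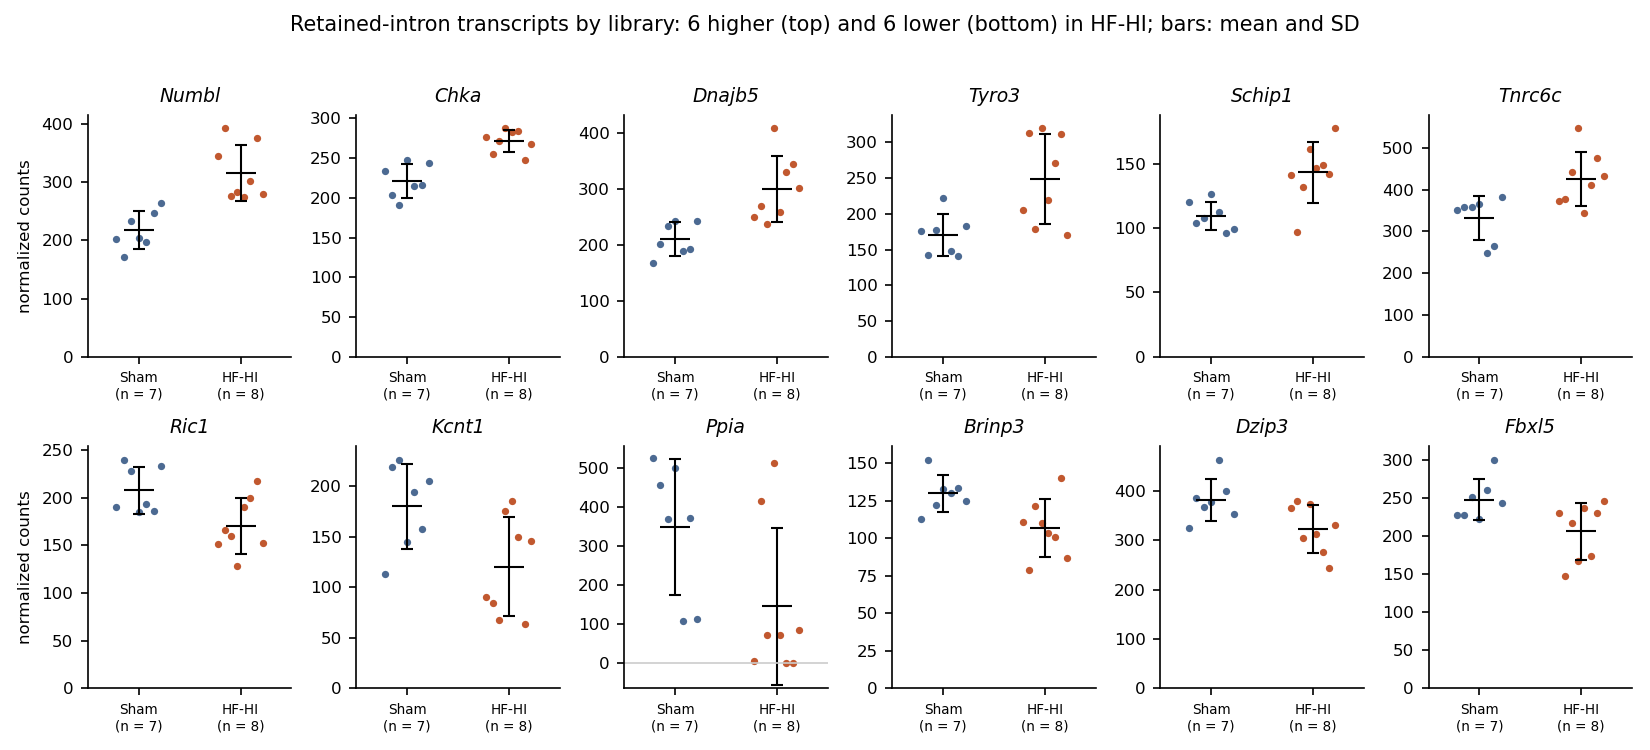
Normalized counts of 12 members in each library, the 6 with the smallest unadjusted p among those higher and the 6 among those lower in HF-HI, with the mean and SD of each group. Points are single libraries. Numbl and Chka are the panels in which the groups do not overlap.

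Numbl ENSMUST00000149805 (chr7:27258806-27282144, plus strand) had the smallest p. Its gene encodes Numb-like, an endocytic adaptor that restrains Notch signaling in neural progenitors. The transcript keeps introns 1 and 2 of its partner and is annotated with 8 exons over 8511 bases. Sham libraries lay at 172 to 265 normalized counts with a median of 204, and HF-HI libraries at 274 to 392 with a median of 292. All 8 HF-HI libraries were thus above the highest Sham library. Means were 217 ± 32.5 (SD, n = 7) and 316 ± 48.2 (SD, n = 8), a log2 difference of 0.54. The adjusted p was 0.206 (limma). The call held without any single library and in the fit with depth.

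Chka ENSMUST00000154467 (chr19:3851832-3867670, plus strand) was the other member whose groups did not overlap. Its gene encodes choline kinase alpha, which starts the synthesis of phosphatidylcholine from choline. The transcript has 2 exons, and the second runs 2911 bases past the donor printed above. Values were 191 to 248 in Sham, with a median of 216, and 248 to 288 in HF-HI, with a median of 274. The highest Sham and the lowest HF-HI library were nearly equal, at 247.8 and 248.1. The log2 difference was 0.30, with an adjusted p of 0.214 (limma). Non-overlap upward was found in 2 of 321 members, against 0.0964% of all rows, and in 0 members downward, against 0.0579% of rows.

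4 more members completed those with the smallest p among the higher. Dnajb5 ENSMUST00000142332, of an HSP40 co-chaperone, lay at 168 to 244 with a median of 203 in Sham and at 238 to 409 with a median of 287 in HF-HI. The 8 HF-HI libraries were all above the Sham median, though the groups overlapped, and the log2 difference was 0.51 (adjusted p = 0.293, limma). Its coding partner differed by a like 0.50 without being called, and the member holds no intronic base of that partner. Tyro3 ENSMUST00000147761, of a receptor tyrosine kinase of the TAM family, keeps introns 15, 16 and 17, and lay at 140.2 to 223 in Sham, median 175, and at 171 to 319 in HF-HI, median 245, a log2 difference of 0.55 (adjusted p = 0.373, limma).

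Schip1 ENSMUST00000182360, a single exon of 1989 bases from a gene whose protein binds schwannomin, had 96.2 to 126 in Sham, median 108, and 96.9 to 178 in HF-HI, median 144. Its HF-HI libraries were above the Sham median in 7 of 8, and the log2 difference was 0.39 (adjusted p = 0.378, limma). Tnrc6c ENSMUST00000141115, of a GW182 protein that works in silencing by microRNA, lay at 248 to 382 in Sham, median 358, and at 344 to 547 in HF-HI, median 422. The log2 difference was 0.36 (adjusted p = 0.395, limma), and its partner was higher too, by 0.47. The Tyro3 and Tnrc6c calls were lost in the fit with depth and in the libraries with a size factor above 1.

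Among the lower members, Ric1 ENSMUST00000160221 had the smallest p. Its gene encodes a subunit of a Rab6 exchange factor at the Golgi. Sham libraries lay at 185 to 239.8 with a median of 193 and HF-HI libraries at 128 to 217 with a median of 163, a log2 difference of −0.28 (adjusted p = 0.476, limma). Kcnt1 ENSMUST00000138568, of a sodium-activated potassium channel, had 114 to 226 in Sham, median 194, and 63.3 to 185 in HF-HI, median 118. All 8 HF-HI libraries were below the Sham median, and the log2 difference was −0.58 (adjusted p = 0.476, limma). The Kcnt1 call was lost in the libraries with a size factor above 1.

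Ppia ENSMUST00000135789, a short transcript of the cyclophilin A gene, had the widest spread. Sham libraries lay at 106 to 524 with a median of 371, and HF-HI libraries at 0 to 511 with a median of 72.3. HF-HI replicates 6 and 7 were at 0, while other HF-HI libraries reached into the Sham range. The log2 difference of means was −1.27 (adjusted p = 0.476, limma), and the call was lost with voom on the recovered reads. Its value is uncertain for the copies named above.

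Brinp3 ENSMUST00000125331, of a neural protein induced by retinoic acid, had 113 to 152 in Sham, median 130.1, and 78.5 to 140.3 in HF-HI, median 107, with a log2 difference of −0.28 (adjusted p = 0.497, limma). Dzip3 ENSMUST00000139350, of a ubiquitin ligase that binds RNA, keeps introns 24, 30 and 31 and differed by −0.24 (adjusted p = 0.503, limma). Fbxl5 ENSMUST00000124421, of the iron-sensing F-box protein, differed by −0.26 (adjusted p = 0.514, limma). These last calls each rested on few libraries. The call of Brinp3 was lost without Sham replicate 2, that of Dzip3 without Sham replicate 5, and that of Fbxl5 without Sham replicate 6 or HF-HI replicate 2, 4 or 6. The calls of Dzip3 and Fbxl5 were also lost with depth as a covariate, and that of Fbxl5 with library weights, in the libraries with a size factor above 1 and with voom.

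The ratio of a member to its coding partner asks whether the retained-intron form moved apart from the form that makes the protein. It was taken per library as log2((member + 10)/(partner + 10)) in normalized counts. Here 27 of 321 ratios (8.41%) were called, 21 higher and 6 lower in HF-HI. The background over 2462 pairs of all transcript types was 6.78% called, with 4.67% higher and 2.11% lower. The smallest adjusted p was 0.194, so 0 ratios passed 0.1, and the median difference was 0.04 over members against 0.03 over all pairs, and 186 members (57.9%) had a positive difference against 54.2% of pairs. With depth as a covariate, 14 members (4.36%) were called against 4.75% of pairs, and 9 of the 27 were among them. Without HF-HI replicate 2, 24 ratios (7.48%) were called against 6.38% of pairs.

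In 20 of the 27, the member was higher and the partner lower in HF-HI, in 6 the member was lower and the partner higher, and in 1 both were higher. The sum over all listed transcripts of the gene moved little in these genes. It differed by less than 0.15 (log2) in 26 of 27, with a median size of 0.06, while the members moved by a median of 0.34 and the partners by 0.29. The rule that calls a ratio favors opposite moves, so these counts describe the called pairs only. Among all 321 members, 105 were higher with a lower partner and 64 lower with a higher partner. In 85 both were higher and in 67 both were lower. Of the 46 called members, 10 had a called partner, 2 in the same and 8 in the opposite direction.

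**Figure D3:**
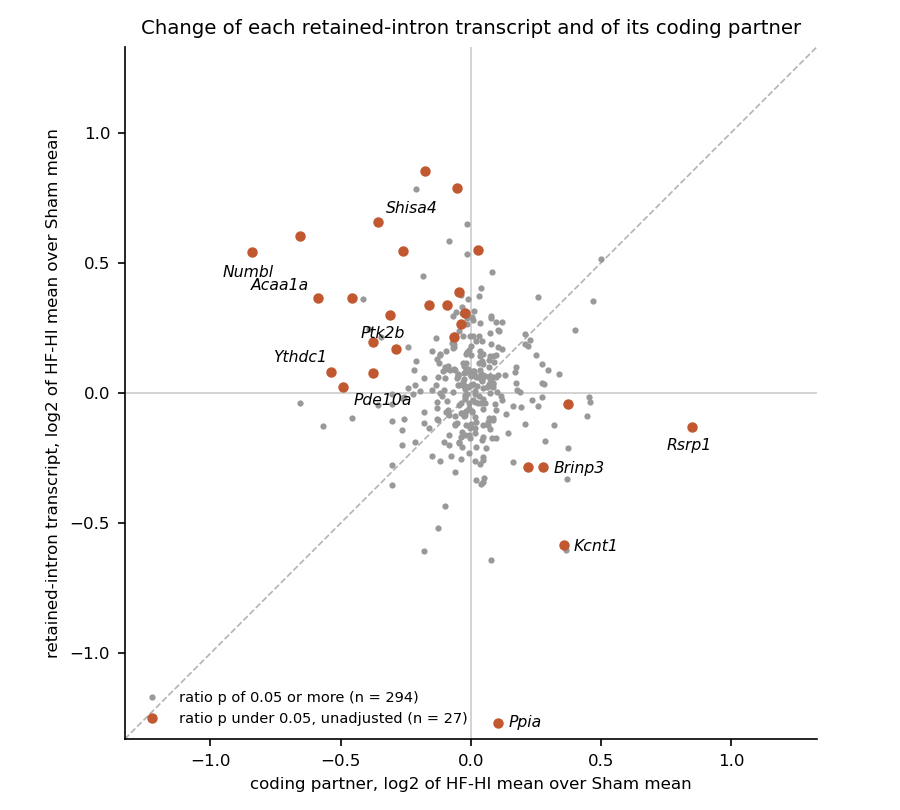
Log2 difference of mean normalized counts, HF-HI over Sham, of each of the 321 members against that of its coding partner, with the 27 called ratios marked. Called ratios sit away from the diagonal, 20 of them at upper left (member higher, partner lower) and 6 at lower right (member lower, partner higher).

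Numbl also had the smallest p for the ratio. The partner lay at 257 to 336 in Sham with a median of 299 and at 76.9 to 307 in HF-HI with a median of 138, a log2 difference of −0.84 (called, adjusted p = 0.293, limma). The log2 ratio was −0.93 to −0.23 in Sham, with a median of −0.35, and −0.11 to 2.21 in HF-HI, with a median of 0.96. All 8 HF-HI ratios were above the highest Sham ratio, which 1 of 2462 pairs showed (0.0406%). The difference was 1.47 ± 0.29 (SE, adjusted p = 0.194, limma), while the gene sum differed by −0.10. The lowest HF-HI ratio, in HF-HI replicate 4, was the one nearest to Sham, and without that library the adjusted p was 0.0586. With library weights it was 0.0925.

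Acaa1a ENSMUST00000176796 followed. Its gene encodes a peroxisomal thiolase of fatty acid oxidation, and the member keeps intron 5, with the donor printed above. The member lay at 127 to 194 in Sham, median 186, and at 171 to 277 in HF-HI, median 210.3, a log2 difference of 0.37 (called, adjusted p = 0.408, limma). Its partner was lower by 0.59 on the log2 scale, at 119 to 185 and 65.0 to 131 (called, adjusted p = 0.304, limma). The log2 ratio was −0.43 to 0.65 in Sham and 0.56 to 1.596 in HF-HI, so that the groups overlapped narrowly. The difference was 0.90 ± 0.20 (SE, adjusted p = 0.264, limma), and the gene sum differed by 0.00.

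In Ptk2b, Pde10a, Shisa4 and Ythdc1 the ratio was higher and the coding partner was called lower. Ptk2b ENSMUST00000136216, of the calcium-activated kinase Pyk2, had a ratio of −3.37 to −2.90 in Sham and −3.18 to −2.14 in HF-HI, a difference of 0.60 (adjusted p = 0.482, limma), and its partner went from a median of 1342 to 1132 normalized counts. Shisa4 ENSMUST00000159918, of a transmembrane protein of the Shisa family, differed in ratio by 1.00 (adjusted p = 0.632, limma) and itself lay at 65.7 to 229.9 in Sham and 134 to 294 in HF-HI. Ythdc1 ENSMUST00000151489, of the nuclear reader of N6-methyladenosine in RNA, keeps introns 11 and 12, and its ratio differed by 0.66 (adjusted p = 0.687, limma). The member itself was nearly level there, with medians of 275 and 286, while its partner went from 181 to 123. The ratio calls of Ptk2b, Shisa4 and Ythdc1 were lost in the fit with depth, those of Ptk2b and Shisa4 also in the libraries with a size factor above 1. That of Ptk2b was lost as well when all listed coding transcripts of the gene were summed as the partner.

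Pde10a ENSMUST00000115722 comes from the gene of a cyclic nucleotide phosphodiesterase that is abundant in striatal projection neurons. The member had medians of 215 in Sham and 222 in HF-HI, with a log2 difference of 0.03 (adjusted p = 0.979, limma), while the partner lay at 2247 to 3271 in Sham and at 1199 to 2277 in HF-HI. The ratio differed by 0.53 (adjusted p = 0.502, limma) and the gene sum by −0.37. Of 14 listed transcripts of 7 striatal marker genes, those of Pde10a included, 3 were called lower and 0 higher, where 3.90% of all rows were called lower. Their sum was 7013 to 10672 in Sham and 4993 to 10106 in HF-HI, and Drd2 was not listed. The part of striatal tissue in this value was not tested.

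The 6 lower ratios were those of Kcnt1, Brinp3, Ppia, Ric1, Rsrp1 and Clk1. In Kcnt1 the log2 ratio was −1.28 to −0.11 in Sham, with a median of −0.76, and −2.42 to −1.10 in HF-HI, with a median of −1.69. All 8 HF-HI ratios were below the Sham median, and the difference was −0.97 ± 0.24 (SE, adjusted p = 0.427, limma). Its partner was higher by 0.36 (called, adjusted p = 0.345, limma), and few bases of this member are its own, as given above. The ratios of Brinp3, Ric1 and Ppia differed by −0.55, −0.49 and −2.45, with adjusted limma p of 0.632, 0.687 and 0.687. The Brinp3 ratio call was lost in the fit with depth, and those of Brinp3 and Ric1 in the libraries with a size factor above 1.

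In Rsrp1 and Clk1 the retained-intron member stood above its partner per kilobase. Rsrp1 ENSMUST00000148900, of an arginine- and serine-rich protein, keeps intron 3 and lay at 960.0 to 1543 in Sham and 919 to 1528 in HF-HI. Its partner lay at 82.1 to 219 in Sham and at 168 to 565 in HF-HI, a log2 difference of 0.85 (called, adjusted p = 0.408, limma). The ratio differed by −0.91 (adjusted p = 0.687, limma), and that call was lost without Sham replicate 1 or 2 and with depth as a covariate.

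Clk1 ENSMUST00000129577 keeps introns 3, 4 and 6, shown above, and its gene encodes a kinase that phosphorylates SR proteins. It lay at 408 to 544 in Sham, median 421, and 361 to 479 in HF-HI, median 449, which is 103% of the partner per kilobase over all libraries. The groups overlapped, with a log2 difference of −0.04 (adjusted p = 0.911, limma). The partner had medians of 189 and 254, a log2 difference of 0.38 (not called, adjusted p = 0.598, limma). The ratio differed by −0.42 (adjusted p = 0.704, limma), and this call held in 5 of the 15 fits without 1 library and was lost with depth as a covariate. A second Clk1 member, ENSMUST00000123580, differed in ratio by −0.54 (not called, adjusted p = 0.729, limma).

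**Figure D4:**
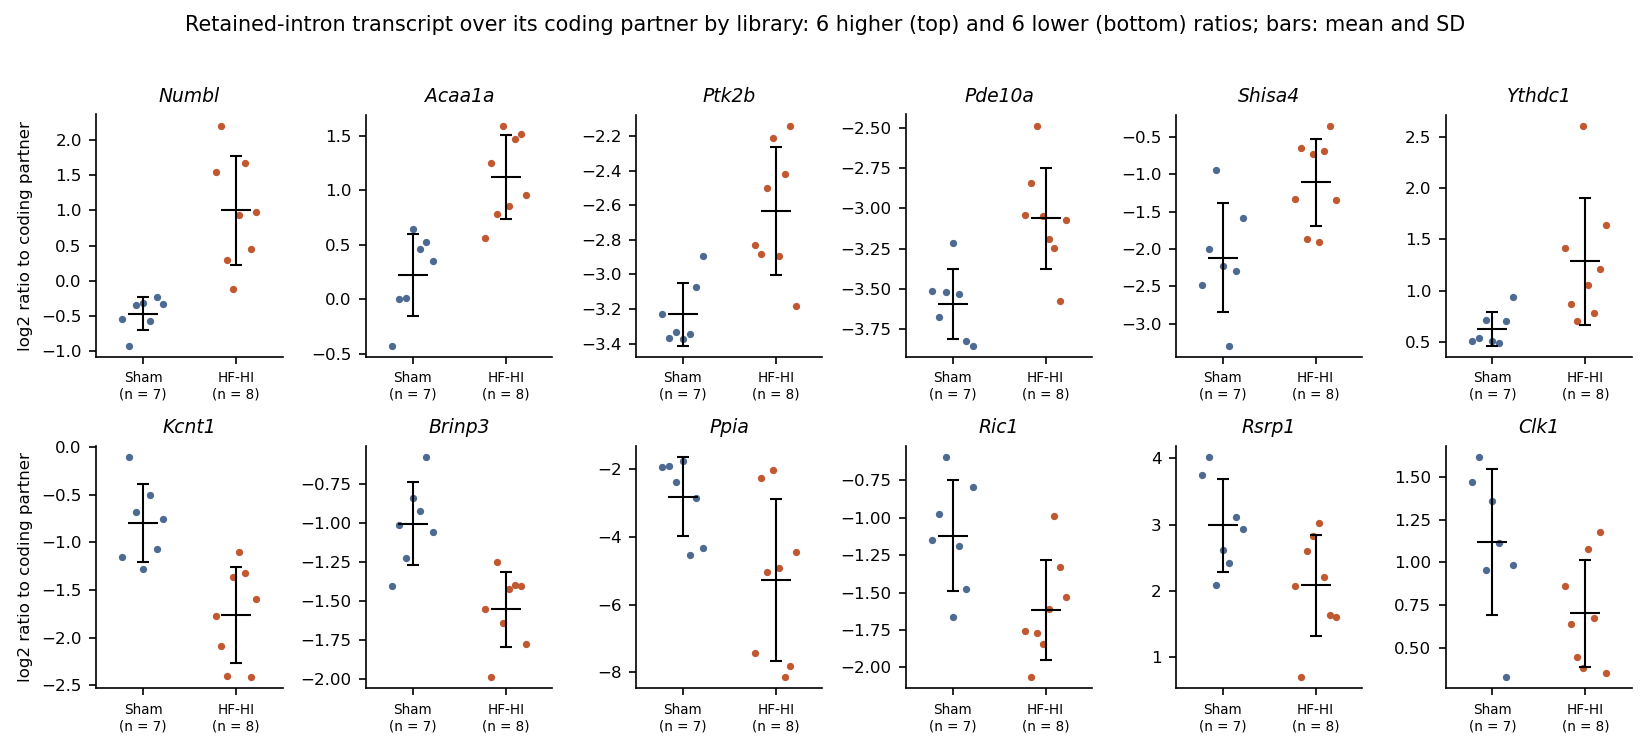
Log2 ratio of 12 members to their coding partner in each library, the 6 with the smallest unadjusted p among the higher and the 6 among the lower ratios, with the mean and SD of each group. Numbl is the panel without overlap, and the Ppia ratios reach −8.15 in the HF-HI libraries where the member is at 0.

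The other genes named for their known detained introns gave no calls in the fits of all libraries with group as the single term. Ogt encodes the enzyme that attaches N-acetylglucosamine to nuclear and cytosolic proteins, and its splicing is known to follow the level of that modification. Its members ENSMUST00000150161 and ENSMUST00000155792 differed by −0.15 and 0.33, in opposite directions (adjusted p = 0.57 and adjusted p = 0.567, limma). All 8 HF-HI libraries of the first were below its Sham median of 379.7, while 6 of 8 of the second were above its Sham median of 158. The absence of these calls depended on the setting, since the first was called under 5 and the second under 10 of the alternatives tried. The SR protein genes Srsf2 and Srsf5 gave differences of −0.11 for ENSMUST00000138484, −0.10 for ENSMUST00000151036 and −0.02 for ENSMUST00000153056, with adjusted limma p of 0.822, 0.904 and 0.978. On the deposited variance-stabilized scale, each SR protein member turned positive in the fit with depth, by 0.0096, 0.030 and 0.062.

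By function, the lists given here held few members each. Their counts are to be read beside the 8.83% of all rows and the 6.78% of all pairs that were called. Members named for these lists, other than those above, were chosen after their values were seen. Among genes with detained introns and splicing kinases, 20 members gave 1 call, Srsf11 ENSMUST00000152274, at 114 to 186 in Sham and 174 to 375 in HF-HI (adjusted p = 0.422, limma). The 2 called ratios were those of Srsf11, higher, whose coding partner was at 0 in at least 1 HF-HI library, and of Clk1, lower. The 9 members of hnRNPs and neuronal splicing regulators gave 0 row calls, and the 2 called ratios there, both higher, were those of Hnrnpll, a regulator of exon exclusion, with differences of 0.58 and 0.48 (adjusted p = 0.704 for both, limma). The 3 spliceosome members gave 0 calls. No member came from the list of nonsense-mediated decay and nuclear surveillance, nor from that of immediate early genes.

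The transcripts of the machinery itself that are not members were called in both directions, except in the list of decay and surveillance. Among genes with detained introns and splicing kinases 2 of 51 were higher and 3 lower, among hnRNPs 4 of 85 were higher and 6 lower, among the spliceosome 2 of 48 were higher and 2 lower, and among decay and surveillance 0 of 29 were higher and 2 lower. Each of these shares is to be read beside the 8.83% of all rows.

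In the other lists the members were again few, beside 8.83% of all rows called. The 16 synapse members gave 1 call, lower. The 9 ion channel and pump members gave 2 calls, 1 higher and 1 lower, the latter being Kcnt1. Of the 3 oxidative phosphorylation members, Cox7b ENSMUST00000155377 was lower, at 339 to 610 in Sham and 217 to 413 in HF-HI (adjusted p = 0.539, limma), and that call held in 7 of the 15 fits without 1 library. The 8 ubiquitin members gave 1 call, Fbxl5. The lists of cytosolic ribosomal proteins (3 members), RNA helicases (1), zinc finger genes (2) and chromatin regulators (5) gave 0 calls.

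The highest log2 difference among called members was that of Calr ENSMUST00000154774, the endoplasmic reticulum chaperone calreticulin, which was chosen after its values were seen. It keeps intron 4, printed above, and lay at 56.2 to 180.4 in Sham, median 103, and 66.6 to 353 in HF-HI, median 159. The groups overlapped widely at a log2 difference of 0.85 (adjusted p = 0.53, limma), while its partner was lower by 0.18 on the log2 scale (called, adjusted p = 0.405, limma). The call held in 9 of the 15 fits without 1 library.

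The called shares by structure, private bases and level are given beside the 8.83% of all rows. Of the 130 members with a whole partner intron 18 were called (13.8%), and of the 179 with part of one 26 were called (14.5%). Among the 166 members with more than 50% private bases 26 were called (15.7%), and among the 49 with under 10% 4 were called (8.16%). Among the 58 members above their partner per kilobase 3 were called (5.17%). These shares were not tested against each other.

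Other transcript types of genes with a coding transcript were compared in the same fits. Among 120 processed_transcript rows, which have no annotated reading frame, 19 (15.8%) were called, 14 higher and 5 lower, and 13 ratios, all higher. Among 113 nonsense_mediated_decay rows 10 (8.85%) were called, 7 higher and 3 lower, with 3 called ratios. Among 1908 further coding transcripts 153 (8.02%) were called, with 124 called ratios. The 266 coding partners of the members gave 33 calls (12.4%), 15 higher and 18 lower. The difference in shares between types was not tested.

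Summed over the set, the members made up 20.5% to 22.97% of the counts of their partners in Sham libraries, with a median of 21.3%. In HF-HI libraries they made up 21.8% to 22.9%, with a median of 22.2%. All 8 HF-HI libraries were above the Sham median, and 0 were above the highest Sham library, Sham replicate 4. That library stood apart from the other 6 Sham libraries, which lay at 20.5% to 21.4%, below all 8 HF-HI libraries. The means were 21.4% ± 0.761 (SD, n = 7) and 22.2% ± 0.404 (SD, n = 8), a log2 difference of 0.05, which was 0.07 without Sham replicate 4. The median log2 ratio over members, which gives each the same weight, differed by 0.01, with 5 of 8 HF-HI libraries above the Sham median. Over the pairs that are not members, the median log2 ratio differed by 0.04, with 7 of 8 HF-HI libraries above the Sham median. No p-value was computed for the summed share.

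**Figure D5:**
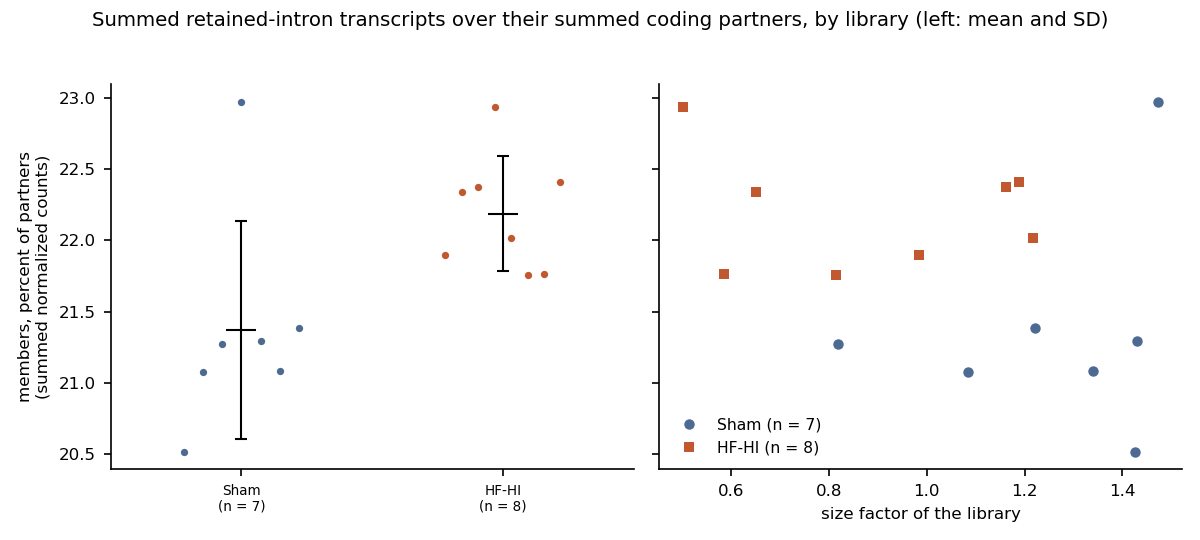
Counts of all members as a percentage of the counts of their coding partners in each library, with the mean and SD of each group. The HF-HI libraries lie at 21.8% to 22.9%, between Sham replicate 4 at 22.97% and the other 6 Sham libraries at 20.5% to 21.4%.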

How the data were processed

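RNA of mouse cortex was sequenced from stranded total RNA libraries. Per the study's methods, the authors aligned reads to mm10 with STAR, assigned them to transcripts with eXpress and normalized the counts with DESeq2. The annotation release and the versions of STAR and eXpress are not given in the sources used here. The deposited values are variance-stabilized log2 values made by the authors, for 7 Sham and 8 HF-HI libraries. eXpress divides reads among overlapping transcripts, so similar transcripts of a gene are estimated jointly.

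The log2 values were inverted to normalized counts, and multiplying by the size factors gave whole reads for 100.0% of values (tolerance 0.1 reads). Transcript types, structures and sequences came from GENCODE M21 (GRCm38), which held 10241 of the 10370 rows. Groups were compared with limma 3.58.1 (R 4.3.3), with group as the single term and a trended prior. The deposited values of all rows were fitted, and in a second fit log2((row + 10)/(partner + 10)) over 2462 pairs. Benjamini-Hochberg adjustment covered each whole fit, with a threshold of 0.1 and calls at an unadjusted p under 0.05. All tests were two-sided, and both fits were tested on simulated data. Printed log2 differences of transcripts are of group mean normalized counts, those of ratios are of group mean log2 ratios.

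The rule that defines the members, which uses annotation and presence in the table, and the gene lists were set with earlier results of these data known. Named members were the 6 with the smallest p in each direction in each fit, the 6 highest per kilobase in level and in percent of the partner, and listed members among Clk1, Clk4, Ogt, Mat2a, Srsf2, Srsf5, Srsf7, Hnrnpdl, Ddx5 and Numbl. Alternatives changed the library depth term, weights, pairing, libraries used, filter, prior, scale, test, scaling, pseudocount and partner. Some members are not reported here.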

Additional observations from a re-analysis of the deposited data

Results flagged for a closer look

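Of 90 groups of values checked for 1 library standing apart by Dixon's criterion, 3 were flagged, where chance flags about 1 in 20. Clk1 ENSMUST00000129577 was at 544 normalized counts in Sham replicate 7, against 408 to 462 in the other Sham libraries. The log2 ratio of Srsf5 ENSMUST00000151036 to its coding partner was −2.69 in HF-HI replicate 4, against −2.06 to −1.55 in the other HF-HI libraries. The log2 ratio of summed members to summed partners was −2.12 in Sham replicate 4, against −2.28 to −2.23 in the other Sham libraries.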

How the results depend on the processing

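The counts varied with the depth term, the filter and the libraries used. With depth as a covariate, 27 members were called (23 higher, 4 lower) and 14 ratios (10 higher). Among the 135 members with a mean of at least 200 normalized counts, 20 were called (15 higher, 5 lower) and 13 ratios (9 higher). These were 14.8% of members against 9.29% of 7424 rows, and 9.63% of ratios against 6.86% of 1400 pairs. Lower members numbered 6 with library weights, 4 with size factors above 1 and 7 with voom. Without 1 library, called members were 32 to 49, the fewest without Sham replicate 2, higher members 24 to 37 and lower members 5 to 15, with 5 without HF-HI replicate 2 and 6 without HF-HI replicate 6. Called ratios were then 22 to 28, higher ratios 16 to 22 and lower ratios 4 to 8. An adjusted p under 0.1 was reached by 0 members in every such fit and by 0 to 1 ratios, the 1 being Numbl, without HF-HI replicate 4 and also, 1 ratio again, with library weights. The log2 difference of the summed share was 0.04 to 0.07 without 1 library, 0.03 against all coding rows, 0.0074 as a median over members and 0.06 without the 10 most abundant members and their partners, an alternative chosen after seeing the data. Under the remaining alternatives, counts stayed within 1.5 times those reported.

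Same-numbered Sham and HF-HI libraries did not deviate together, with correlations of −0.14 to 0.09, and 1 of 7 correlated best with its own number. With the replicate number as a block, 42 members were called (29 higher, 13 lower) and 20 ratios (13 higher, 7 lower). These were 13.1% of members against 8.59% of all rows, and 6.23% of ratios against 6.54% of all pairs.

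Signs turned only in small differences, given here on the deposited scale. Clk1 ENSMUST00000129577 ranged from −0.020 to 0.0038 over fits without 1 library, positive without Sham replicate 7. With depth as a covariate, Srsf2 was at 0.0096 and its ratio at 0.084, Srsf5 ENSMUST00000151036 at 0.030 and ENSMUST00000153056 at 0.062. The last was at 0.051 with size factors above 1 and ranged from −0.034 to 0.0080 over fits without 1 library, turning positive in 6 of these 15. The causes were not tested.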
